A study of Mus musculus with 12 samples.

Results

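Deletions of fewer than 50 bp were examined at 4 Cas9 target sites in muscle stem cells (MuSCs) of the mouse, which rebuild fibres after injury. An entry of the deposited long-read table was taken where more bases were deleted than inserted and the net loss was under 50 bp. Each tagged DNA molecule was counted once. This gave 1302 molecules of 2623 with an indel, and the other deletions, 931 molecules, were 50 bp or longer. The count in every sample equalled the deposited number of deletions minus that of large deletions, so the difference was 0 in each. Short deletions made up 28.4% and 29.2% of indels in the S7 samples, on 27 and 70 molecules, and 47.8% to 58.0% in the other samples, on 118 to 372 molecules. The length that chose these molecules is not a finding. Between sites, only what lies within that range was compared, and a later comparison sets short deletions against large ones.

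The cells came from Pax7Cas9 mice, in which Cre driven by Pax7 switches on a Cas9-EGFP gene at Rosa26. An AAV9 vector, a virus that enters muscle efficiently, brought in the sgRNA after injection into the muscle of young mice, and MuSCs were sorted by their green fluorescence weeks later. At the time of injection the cells were proliferating myoblasts by the study's account, so molecules with the same deletion need not stem from separate repair events. The labels and methods name an sgRNA virus for this assay, while a legend names dual sgRNAs. A single cut per site was assumed here. Each site, named S1, S7, S18 and S28, had 2 edited samples, and the 4 unedited libraries were not analysed here. In individual DNA molecule sequencing (IDM-seq), a random tag (unique molecular identifier, UMI) is attached to each molecule before Nanopore sequencing. Libraries held between 3745 and 10848 UMI types. The 8 samples are numbered replicates, and p-values between them measure the spread between these samples.

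Cas9 cuts both strands a few bases from the PAM, the short motif next to the target that it needs for binding. Cells close such breaks by non-homologous end joining, which often loses or gains a few bases, or by microhomology-mediated end joining, in which short matching stretches on either side pair and the bases between them and a copy of the stretch are lost. In a coding exon, a loss that is a multiple of 3 bases keeps the reading frame, whereas any other loss shifts it.

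The target sequences are shown first because the short deletions lie on and around these breaks. Each stretch runs over 30 bases on either side of the break, on the plus strand of GRCm38, in lower case. Capitals mark the PAM as read on the plus strand, and at S7 and S28 another PAM 1 base away also fits. At S1 and S28 the guide targets the minus strand and the capitals are the reverse complement of the PAM.
S1 target: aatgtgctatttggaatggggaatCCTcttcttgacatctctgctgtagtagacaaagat
S7 target: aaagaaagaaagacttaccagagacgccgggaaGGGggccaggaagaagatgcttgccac
S18 target: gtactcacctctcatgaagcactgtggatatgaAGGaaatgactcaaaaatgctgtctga
S28 target: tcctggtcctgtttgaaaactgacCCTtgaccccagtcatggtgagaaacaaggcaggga

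Each site matched GRCm38 at a single place. S1 lay in coding exon 2 of Adk (ENSMUSG00000039197), which encodes adenosine kinase, with the break at chr14:21092400-21092401 and 34 coding bases of the exon to its left and 41 to its right. S7 lay in exon 3 of Ctcf (ENSMUSG00000005698), the gene of the insulator-binding protein CTCF, with the break at chr8:105663849-105663850, with 87 coding bases to its left, start codon included. S18 lay in exon 2 of Runx1 (ENSMUSG00000022952), a transcription factor of blood development, with the break at chr16:92825610-92825611 with 36 coding bases of the exon to its right, start codon included, and 22 to its left. This break was set from the PAM and is 1 base to the left of the cut site listed in the table. At S7, also with a PAM on the plus strand, the same offset would put the break 1 base further left, at the other PAM that fits. S28 lay in an intron of Pax7 (ENSMUSG00000028736), the transcription factor that marks MuSCs, at chr4:139771798-139771799, so that frame has no coding meaning there.

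The leading deletions are shown next because their lengths and repeated ends can be read from the sequence. For each site, they are those 3 with the largest mean share over both replicates, in that order, with the deleted bases in capitals, placed as far left as the sequence allows.
S1 3 bp deletion: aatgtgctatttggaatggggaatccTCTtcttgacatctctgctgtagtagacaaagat
S1 2 bp deletion: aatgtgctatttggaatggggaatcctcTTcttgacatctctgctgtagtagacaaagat
S1 5 bp deletion: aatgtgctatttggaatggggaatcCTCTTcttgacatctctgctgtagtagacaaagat
S7 38 bp deletion: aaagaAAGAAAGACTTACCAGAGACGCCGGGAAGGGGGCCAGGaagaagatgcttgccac
S7 39 bp deletion: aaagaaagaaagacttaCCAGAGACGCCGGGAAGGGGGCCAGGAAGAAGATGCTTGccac
S7 37 bp deletion: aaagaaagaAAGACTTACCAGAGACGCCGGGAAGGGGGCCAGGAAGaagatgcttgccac
S18 9 bp deletion: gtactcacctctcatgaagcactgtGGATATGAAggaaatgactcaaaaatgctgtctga
S18 2 bp deletion: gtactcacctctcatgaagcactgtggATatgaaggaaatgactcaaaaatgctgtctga
S18 6 bp deletion: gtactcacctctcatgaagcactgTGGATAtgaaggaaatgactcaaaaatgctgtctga
S28 7 bp deletion: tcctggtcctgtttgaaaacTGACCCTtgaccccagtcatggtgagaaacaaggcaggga
S28 1 bp deletion: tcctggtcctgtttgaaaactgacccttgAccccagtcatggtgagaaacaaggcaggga
S28 3 bp deletion: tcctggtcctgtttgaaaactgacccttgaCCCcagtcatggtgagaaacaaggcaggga

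At S1, 1 of 2 TCT units in a row was lost on 34 of 208 molecules with a short deletion in replicate 1 (16.3%, 95% Wilson interval 11.9 to 22.0). In replicate 2 it was lost on 74 of 372 (19.9%, 16.2 to 24.3). This loss removes as many bases as a codon has and led in both replicates. The 2 bp loss of TT up to the break came second with 7.21% and 10.5%, and has no repeat at its ends. The 5 bp loss, flanked by CT, reached 2.88% and 4.84%. Intervals cover counting error only.

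At S7, the leading deletions were far longer. The 38 bp deletion, whose ends share the repeat AAGAA, was on 6 of 27 molecules in replicate 1 (22.2%, 10.6 to 40.8) and on 3 of 70 in replicate 2 (4.29%, 1.47 to 11.9). The 39 bp deletion, with CCA at both ends and in frame, was on 3 of 27 (11.1%, 3.85 to 28.1) and 9 of 70 molecules (12.9%, 6.91 to 22.7), and led in replicate 2. The 37 bp deletion, with AAGA at its ends, reached 7.41% and 7.14%. The order of the first pair thus changed between replicates, with overlapping intervals. Next came a 12 bp deletion with 7.41% and 2.86%, and then losses of 2, 34 and 42 bp with 3.70% and 5.71% each, all 4 named after their values were seen. The 34 and 42 bp losses end at the same base as the 38 bp deletion. They begin 4 bp later and 4 bp earlier in the run of AAAG units.

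At S18, the 9 bp deletion with GGA at its ends was on 29 of 139 molecules in replicate 1 (20.9%, 14.9 to 28.4) and on 15 of 118 in replicate 2 (12.7%, 7.86 to 19.9). It keeps the frame. The loss of 1 of 2 AT units held 9.35% and 12.7%, and so equalled the 9 bp deletion in replicate 2, with 15 molecules each. The 6 bp deletion, in frame and flanked by TG, reached 6.47% and 4.24%.

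At S28, a 7 bp deletion led in both replicates. It is listed on the PAM side and has the repeat TGACCC, the longest among the leading deletions. It was on 21 of 210 molecules in replicate 1 (10%, 6.63 to 14.8) and on 17 of 158 in replicate 2 (10.8%, 6.83 to 16.6). Loss of the single A left of the break held 8.57% and 3.8%. The 3 bp loss of CCC on the other side held 5.24% and 6.33%. Across the sites, the 12 leading deletions had interval pairs that overlapped between replicates, as the plot of leading deletions shows.

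**Figure D1:**
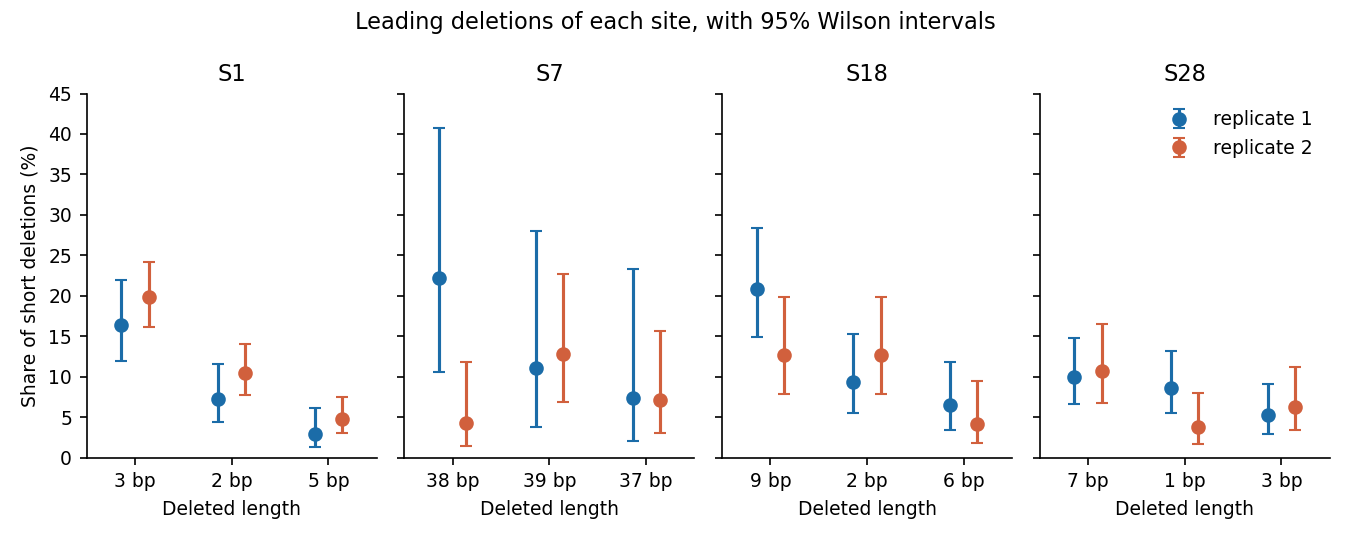
Share of molecules with a short deletion (y axis, %) held by the leading deletions of each site, named on the x axis by deleted length, with points for each replicate and bars for 95% Wilson intervals. The S1 3 bp and S18 9 bp deletions lead their sites in mean share, and the intervals of S7 replicate 1, which rests on 27 molecules, are widest.

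Short deletions at S7 were long ones, between 30 and 49 bp on most molecules, while 3 to 9 bp was the fullest class at S1, S18 and S28. The mean deleted length was 12.8 bp in S1 replicate 1 and 13.7 bp in replicate 2. At S7 it was 32.9 and 29 bp, at S18 11.2 and 14.7 bp, and at S28 14.1 and 12.1 bp. Both S7 samples thus lay above all 6 others, and the other 3 sites overlapped. The site means ± SD (n = 2) were 13.3 ± 0.64 bp at S1, 31.0 ± 2.79 bp at S7, 13.0 ± 2.42 bp at S18 and 13.1 ± 1.40 bp at S28, where the length limit bounds every value. Differences between sites made up 96.8% of the variance, with p = 0.143 (exact permutation test over all 105 ways to form 4 pairs; adjusted p = 0.448 over 5 measures), and the smallest p this design allows is 0.00952. A single site that stands apart is not enough to reach that value. It also needs the samples of the other 3 sites, which overlapped here, to pair more closely than in any other arrangement. Set against the other samples, S7 was 17.8 bp longer (exact two-sided permutation p = 0.0357, the smallest of 28 splits; adjusted p = 0.143 over 4 sites), a comparison chosen after its values were seen. With medians in place of means, 6 and 5 bp at S1, 38 and 34.5 bp at S7, 9 bp in both S18 samples and 8 bp in both S28 samples, the test over 105 pairings gave p = 0.00952 (exact). The tied medians within S18 and within S28 enter this p, and S7 stood apart with means as well.

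The length classes show the same contrast. Deletions of 30 to 49 bp made up 74.1% and 67.1% of short deletions at S7. At the other sites their share ran from 7.91% in S18 replicate 1 to 22.3% in S1 replicate 2. Deletions of 3 to 9 bp held none of 27 molecules in S7 replicate 1, which allows a share of up to 11.1% (3 molecules), and 5.71% in replicate 2, against 34.7% to 56.3% elsewhere. In S28 replicate 2, where that share was highest, 8 bp and 7 bp losses were the fullest lengths, with 14 and 22 molecules.

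**Figure D2:**
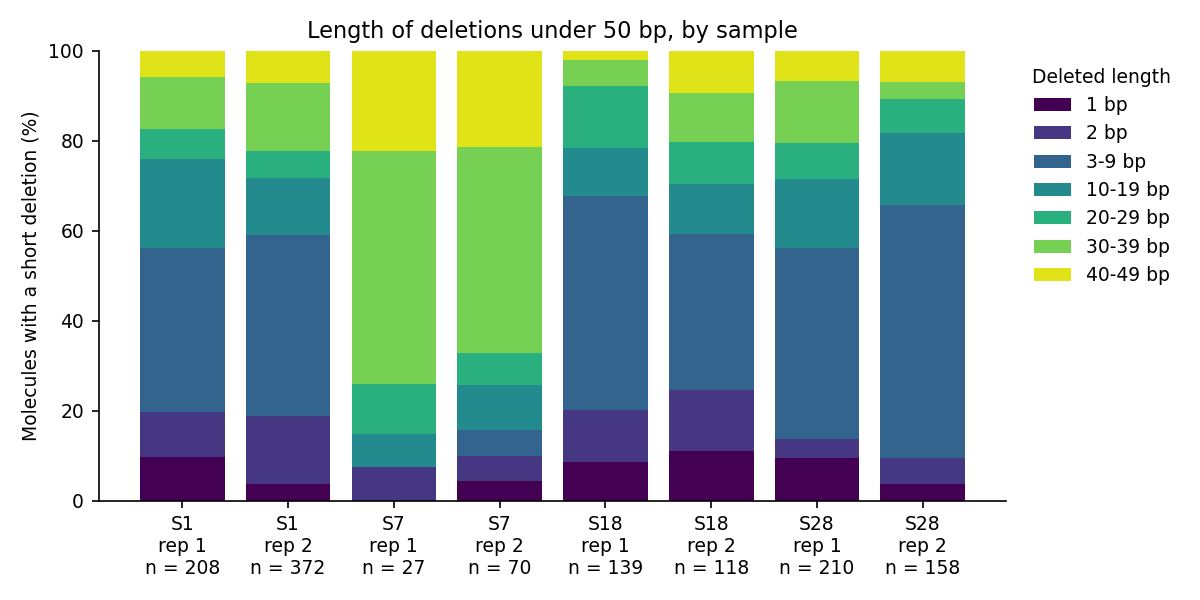
Stacked shares of molecules with a short deletion (y axis, %) by deleted length class in each sample, with the number of molecules under each bar. Both S7 bars are filled mostly by the 30 to 39 bp and 40 to 49 bp classes, and the 3 to 9 bp class is the fullest in the other 6, with 34.7% to 56.3%.

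Pooling both replicates, the most frequent lengths were 3 bp at S1 (117 of 580 molecules, most of them the TCT loss), 39 bp at S7 (14 of 97), 9 bp at S18 (48 of 257) and 7 bp at S28 (53 of 368). Each rested on 2 or 3 distinct deletions. Just inside the length limit were 11 molecules of 48 bp and 11 of 49 bp, the longest in the class. Just outside were 6 of 50 bp and 8 of 51 bp.

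Losses of a single base were a minor outcome and varied between replicates. They were on 20 molecules in S1 replicate 1 (9.62%) and 14 in replicate 2 (3.76%), on 0 and 3 at S7 (0 and 4.29%), on 12 and 13 at S18 (8.63% and 11.0%), and on 20 and 6 at S28 (9.52% and 3.8%). At S1 and S28 the higher replicate had over 2 times the share of the lower, and only the S18 pair stayed close. Sites accounted for 56.8% of the variance (exact permutation p = 0.295, adjusted p = 0.448), less than could be told from the spread between replicates.

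Deletions whose net length is a multiple of 3, called in frame here, made up 31.2% (65 of 208) and 34.4% (128 of 372) of short deletions at S1. The in-frame share was 29.6% (8 of 27, Wilson interval 15.8 to 48.5) and 45.7% (32 of 70, 34.6 to 57.3) at S7, and 47.5% (66 of 139, 39.4 to 55.7) and 37.3% (44 of 118, 29.1 to 46.3) at S18. In the S28 intron, 29.5% (62 of 210) and 31.6% (50 of 158) were multiples of 3. Of all lengths, 1 in 3 is a multiple of 3. The Wilson intervals of S7 replicate 2 and S18 replicate 1 lay above that share, and those of the other samples covered it. S18 replicate 1 was highest and S28 replicate 1 lowest, and the S7 pair spanned nearly this whole range. Sites made up 46.8% of the variance (exact permutation p = 0.343, adjusted p = 0.448).

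At S1 and S18 much of the in-frame share rested on the leading deletion. Without the 3 bp loss of TCT, 17.8% and 18.1% of the remaining S1 molecules were in frame. Without the 9 bp deletion, 33.6% and 28.2% were in frame at S18. At S28, whose leading 7 bp loss is out of frame, the shares without it were 32.8% and 35.5%. At S7, without the leading deletion of each sample, 38 bp in replicate 1 and 39 bp in replicate 2, they were 38.1% and 37.7%, and so closer than with it. Counting each distinct deletion once, in-frame shares ran from 28.6% in S18 replicate 2 to 42.4% in S7 replicate 2. At S1, 38.5% and 40.5% of deletions of 1 to 9 bp were in frame, 14.5% and 15.9% of those of 10 to 29 bp and 33.3% and 33.7% of those of 30 to 49 bp, a contrast that was not tested.

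In the coding exons, nearly all short deletions stayed inside the coding part of the exon. At S7, 87 coding bases lie left of the break and more to its right. No deletion under 50 bp that overlaps the study's window around the cut site can thus reach past the coding part there. The absence of such molecules among 27 and 70 was set by the filter and the length limit. At S1, 2 of 208 and 5 of 372 reached past the coding part. At S18, whose break lies 22 coding bases from the splice site side of the exon, 1 of 139 and 7 of 118 did. In replicate 2, all 7 reached past that end, which in a gene on the minus strand is the 3′ end of the exon. Out-of-frame deletions inside the coding part were thus on 67.8% and 65.3% of short-deletion molecules at S1, 70.4% and 54.3% at S7 and 51.8% and 58.5% at S18. In-frame deletions inside it were on 31.2% and 33.3% at S1, 29.6% and 45.7% at S7 and 47.5% and 35.6% at S18.

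Short deletions clustered on the break at every site. In some equivalent placement, they removed a base next to the break on 93.3% and 96.2% of molecules at S1, 92.6% and 94.3% at S7, 97.1% and 97.5% at S18 and 97.1% and 93.7% at S28. These shares differed little between samples, and sites made up 56.4% of the variance (exact permutation p = 0.305, adjusted p = 0.305 over 2 measures added after the values were seen). The filter of the study kept only indels that overlap a window around the cut site, which favours such positions. At S7 and S28 a second PAM 1 base away is possible. With it, the share became 96.3% and 97.1% at S7 and 81.9% and 79.1% at S28, the S28 samples lay below all others, and sites made up 97.8% of the variance (exact permutation p = 0.0190).

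The reach from the break separated S7 from the rest. The base 10 bp from the break was missing on the PAM side in 81.5% and 72.9% of S7 molecules and on the other side in 81.5% and 71.4%. At S1, S18 and S28 these shares ran from 18.7% to 35.6% on either side. At 20 bp the S7 molecules were less even, with 18.5% and 18.6% on the PAM side and 40.7% and 27.1% on the other. Deletions with repeated ends were placed midway between their equivalent positions for these values.

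**Figure D3:**
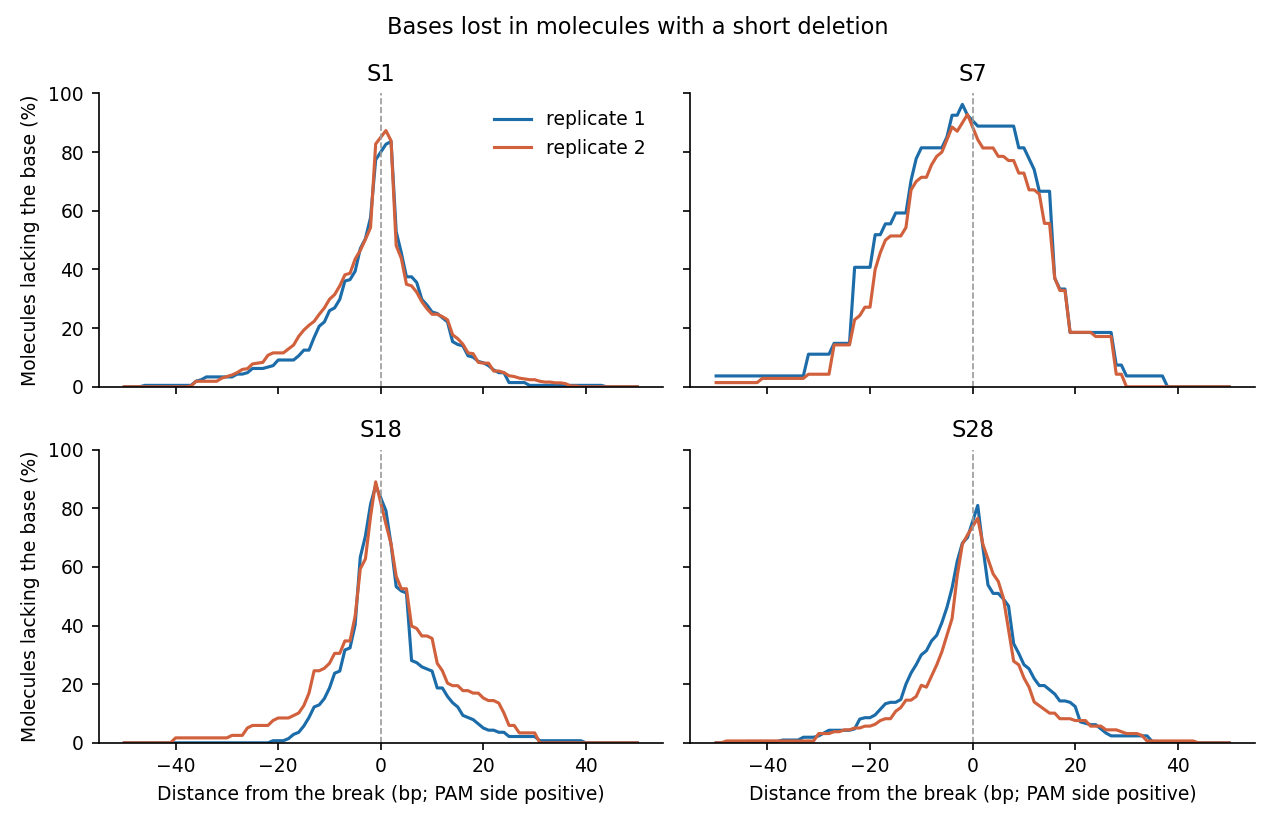
Share of molecules with a short deletion that lack each base (y axis, %), by distance from the break in bp with the PAM side positive, for both replicates of each site. The S7 profile is broad, with 71.4% or more of molecules lacking the base 10 bp away on either side, whereas the S1, S18 and S28 profiles fall to 35.6% or less there.

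Repeats at the ends of the short deletions differed between the sites. The repeat length is the number of bases by which a deletion can be moved without changing the product, which is the microhomology shared by both sides. A repeat of at least 2 bp was present on 48.1% and 49.7% of short-deletion molecules at S1, 81.5% and 77.1% at S7, 64.0% and 61.9% at S18 and 34.8% and 36.1% at S28. The order was S7, S18, S1, S28, and no sample of a site overlapped another site. Site means ± SD (n = 2) were 79.3 ± 3.07%, 62.9 ± 1.53%, 48.9 ± 1.17% and 35.4 ± 0.93%. Sites made up 99.3% of the variance (exact permutation p = 0.00952, the smallest possible; adjusted p = 0.019 over 2 measures). This measure was chosen after its values were seen. Counting each distinct deletion once, sites made up 96.6% of its variance (exact p = 0.0190). Among large deletions of the same samples, the site means of this share were 59.8% at S7, 68.1% at S18, 63.7% at S1 and 65.9% at S28. They lay above the short deletions at S1, S18 and S28 and below them at S7, a contrast that was not tested.

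Repeats of 5 bp or more were on 37.0% and 12.9% of molecules at S7. At S28, 10% and 10.8% did, which is the share of the 7 bp deletion with TGACCC. At S1 a repeat of 4 bp was common, with 23.6% and 22.0%, and most of it was the TCT loss. No repeat at all was found on 7.41% and 7.14% of molecules at S7, 22.3% and 23.7% at S18, 30.8% and 29.3% at S1 and 41.4% and 34.8% at S28.

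**Figure D4:**
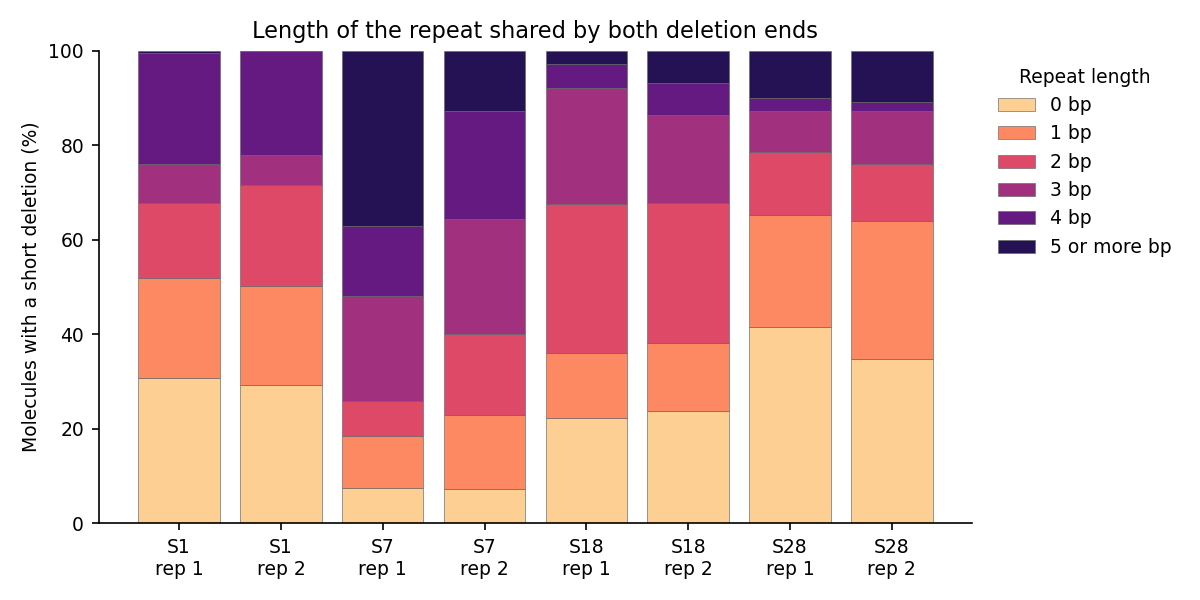
Stacked shares of molecules with a short deletion (y axis, %) by the length of the repeat shared by both deletion ends, per sample. Molecules with no repeat are 7.41% or less at S7 and 34.8% or more at S28, with S1 and S18 between.

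The sequence around each break offers few deletions with such repeats. Of all distinct deletions of 1 to 49 bp that touch the break, 8.38% of 955 at S1, 8.67% of 911 at S7, 7.23% of 955 at S18 and 7.01% of 985 at S28 have a repeat of at least 2 bp. The molecules observed had one on 49.1%, 78.4%, 63.0% and 35.1% when both replicates were pooled. Counting each distinct deletion once, as the available share does, the observed shares were 29.2%, 62.5%, 36.8% and 28.2%, with S1 and S28 nearly equal. These shares pool all lengths, and 597 of the 955 available at S1 are of 30 to 49 bp. For 3 to 9 bp, the available shares were 11.1% at S1, 18.2% at S7, 15.2% at S18 and 11.8% at S28. Distinct deletions observed in this class had such a repeat in 14.3%, 100% (of 2), 29.4% and 12.1%. Molecules had one in 61.5%, 100% (of 4), 71.0% and 37.6%. For 1 to 2 bp at S28, 40% of those available and 0% of 43 observed molecules had one. Over all lengths, the available shares for repeats of at least 3 bp were less alike, at 1.88% for S1, 4.17% for S7, 2.51% for S18 and 1.83% for S28. In the 30 to 49 bp class alone, 88.1% of 67 S7 molecules had a repeat of at least 2 bp. This compares with 71.4% of 35 at S18, 60% of 60 at S28 and 50.4% of 119 at S1. Of the 10 leading deletions of each site, 9 at S7, 7 at S18, 6 at S1 and 3 at S28 had a repeat of at least 2 bp. These counts are descriptions, since deletions of a site share their sequence.

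Profiles of short deletions combined a few frequent products with many rare ones. The 10 most frequent deletions of a sample held 43.3% of molecules in S28 replicate 1 and 44.9% in replicate 2, and 51.0% and 53.2% at S1. They held 62.6% and 55.9% at S18 and 74.1% and 57.1% at S7, where the number of molecules was lowest. The most frequent deletion alone held 16.3% and 19.9% at S1, 22.2% and 12.9% at S7, 20.9% and 12.7% at S18 and 10% and 10.8% at S28. Both S28 samples were below all others on either measure. Sites made up 48.1% of the variance of the top share (exact permutation p = 0.448, adjusted p = 0.448).

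The probability that 2 randomly chosen molecules carry the same short deletion, which does not depend on depth on average, was 4.29% and 5.89% at S1, 5.98% and 3.52% at S7, 6.40% and 4.24% at S18 and 2.72% and 2.73% at S28. S28 was again lowest, with a pair of nearly equal values, and S1, S7 and S18 overlapped. Sites made up 56.2% of the variance (exact permutation p = 0.371, adjusted p = 0.448). Thinned to 27 molecules, the number in the smallest sample, a sample held 17 to 20.7 distinct deletions. Deletions seen on a single molecule made up 15.4% of molecules in S1 replicate 1 to 44.4% in S7 replicate 1.

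Part of the leading products returned in the other replicate. Of the 10 most frequent short deletions, 6 were shared at S1, 5 at S7, 7 at S18 and 5 at S28. Ties set part of these lists, as in S7 replicate 1, where 12 of 17 distinct deletions were on a single molecule. Among all distinct ones, 35 of 137 were shared at S1, 10 of 40 at S7, 24 of 76 at S18 and 30 of 118 at S28. Molecules whose deletion was also seen in the other replicate made up 79.3% and 74.7% at S1, 74.1% and 50% at S7, 79.1% and 74.6% at S18 and 61.4% and 60.8% at S28.

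Short deletions were also set against the large deletions of the same samples. Longer deletions can take more distinct forms, so the length limit that splits the classes bears on the direction of this comparison. Deletions were counted as the same if start, length and inserted bases were equal. Of the 931 large deletion molecules, 922 came from structural-variant calls, and whether the placement of their ends bears on the comparison was not tested. The probability that 2 molecules carry the same large deletion was 0 in S18 replicate 1 and 0.25% to 0.83% in the other samples. It was higher for short deletions in 8 of 8 samples, by 4.15 ± 1.64 percentage points (mean ± SD, n = 8; exact two-sided sign-flip permutation p = 0.00781, the smallest possible; adjusted p = 0.0234 over 3 measures), and the groups did not overlap. With the 4 site means as the unit, since both samples of a site share its sequence, p was 0.125 (exact, the smallest that 4 values allow). Without deletions seen on a single molecule the difference was 0.70 points (exact p = 0.828, 7 samples). Some tags carry an end mark in their name, which the sources used here do not define. The share of tags with this mark was 56.5% to 81.4% among short and 31.8% to 54.8% among large deletions, and higher among short ones in every sample. With unmarked tags only, an alternative chosen after seeing the data, the difference was 3.85 points (exact p = 0.00781).

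**Figure D5:**
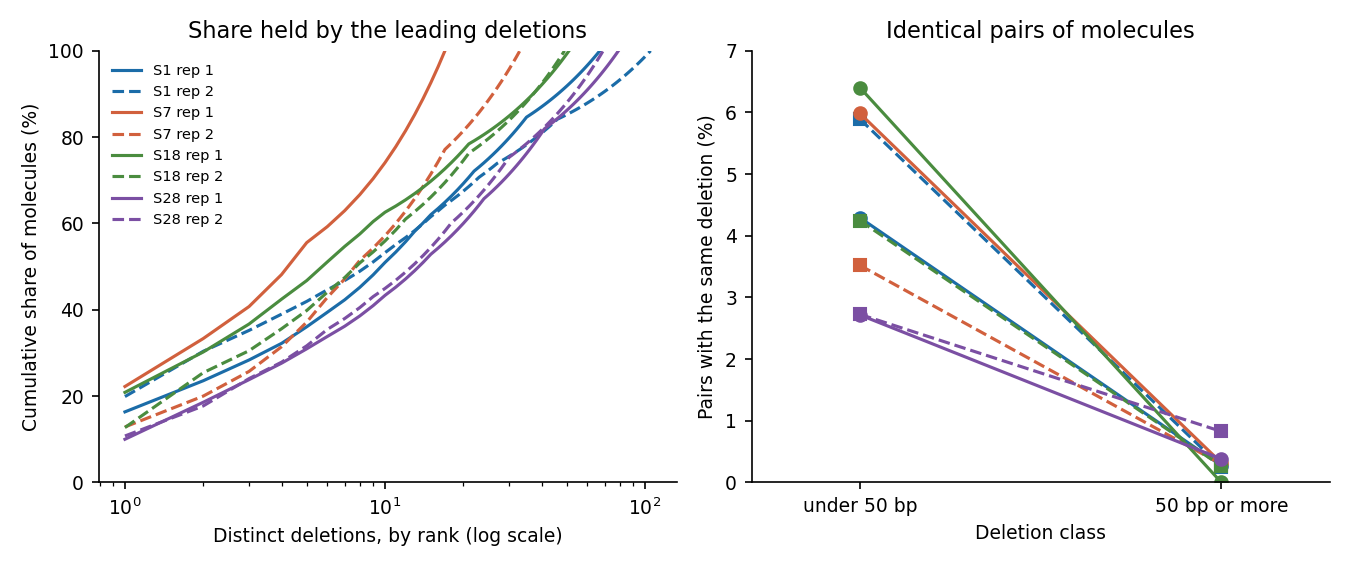
Left, cumulative share of molecules with a short deletion (y axis, %) by rank of the distinct deletions on a log scale, per sample. Right, pairs of molecules with the same deletion (y axis, %) among deletions under 50 bp and of 50 bp or more, each line joining the values of 1 sample (circles and full lines replicate 1, squares and dashed lines replicate 2, colours as at left). All 8 lines fall, from 2.72% or more to 0.83% or less.

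The frame did not separate the classes beyond the spread. Short deletions were in frame more often than large ones in 5 of 8 samples and less often in 3, by 5.45 ± 15.1 percentage points (mean ± SD, n = 8; exact two-sided sign-flip permutation p = 0.320, adjusted p = 0.480). The largest differences were 27.5 points in S18 replicate 1 and -20.4 points in S7 replicate 1. Inserted bases were listed beside 1 short deletion, in S28 replicate 1, and beside 0 of 931 large ones, which allows up to 0.322% (difference 0.06 points; exact permutation p = 1.0). Large deletions came mostly from structural-variant lines, 922 of 931 molecules, and none of the 1191 such lines lists inserted bases, so the comparison says little. For short deletions, 5 lines list inserted bases, and in 4 of them another line of the same molecule gives the deletion without them.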

How the data were processed

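The authors called variants per UMI from Nanopore reads with VAULT (its version is not given in the sources used here), counted indels that overlap a window around the cut site, removed those seen in unedited libraries, and deposited counts per sample and a line per event. Deletions of 50 bp or more were classed as large. A true deletion that resembles background is lost by such a filter. Of the event lines, 55 were empty in the copy used and were not analysed here. The 1378 lines with a short deletion were reduced to 1302 molecules, taking the longest net deletion of each UMI. Tags at most 1 base apart made up 2 of 6937 pairs with the same deletion. The deleted sequence did not equal GRCm38 at the listed place for 8 molecules. They were kept. Genes are from GENCODE.

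Members, measures and alternatives were chosen with earlier results of these data known. Named deletions are the 3 with the largest mean share per site. Groups came from sample titles. Between sites, the one-way F statistic was permuted exactly, within samples signs were flipped, and p-values were adjusted by Benjamini-Hochberg (threshold 0.05). Of the columns with values per sample, 0 were unused. Code was tested on simulated data and used Python 3.11.15, numpy 2.4.6, scipy 1.17.1 and pandas 2.3.3.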

Additional observations from a re-analysis of the deposited data

How the results depend on the processing

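Of 143 alternative values, 134 kept their side of 0.05 (unadjusted). Direction was checked for the short minus large differences only, since a share of variance has none. Most of the results lay above 0.05 in their main form. With medians in place of means, length between sites passed it (99.5% of variance, exact permutation p = 0.00952). So did, with tags lacking the undefined end mark only (chosen after seeing the data), mean length (96.2%, exact p = 0.0381) and the probability of identical short deletions (93.7%, exact p = 0.0286). With the other reading of the break at S7 and S28, the share of deletions touching the break passed it as well (97.8%, exact p = 0.0190). Without deletions seen on a single molecule, the short minus large difference in identical pairs was 0.70 points. The cause of these changes was not tested. The share with a repeat of at least 2 bp stayed past 0.05 in all its alternatives, with 90.02% to 99.7% of variance between sites (exact p = 0.00952 to 0.0417), each chosen after seeing the data. The short minus large difference in inserted bases became 0 without deletions seen on a single molecule and with unmarked tags only. It also became 0 without S28 replicate 1, which held the only molecule with inserted bases. Leaving out each sample in turn gave 0 to 0.068 points for it, 3.82 to 4.47 points for identical pairs, 2.30 to 9.13 points for frame, and 96.3% to 97.9% for mean length. S18 replicate 1 gave no value without single-molecule deletions.

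Same-numbered samples moved together in 2 of 6 site pairs only, so the numbers were not taken as pairing. With the replicate block, the identical-pair difference was 4.15 points with p = 0.125 (exact, the smallest possible with 4 site means), and mean length kept 96.8% of variance between sites (exact p = 0.25). The share with a repeat of at least 2 bp kept 99.4% under it (exact p = 0.0417). The block moved no other result across 0.05. S7 replicate 1, with 27 short deletions, limits every statement on S7.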
